A study of Mus musculus with 4 samples.

Results

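Type 1 vomeronasal receptors (V1Rs), encoded by the Vmn1r genes, are G protein-coupled receptors that detect pheromones and other social chemical cues in rodents. They are known from sensory neurons in the apical layer of the vomeronasal organ, where each neuron expresses very few of them and the signal passes through the G protein subunit Gnai2 to the cation channel Trpc2. The genes lie in large clusters of near-identical copies, which makes them hard to count from short reads, and an oocyte is not a tissue in which they are known to act. Every gene whose symbol is Vmn1r followed only by a number was taken, which gave 207 of the 55335 genes in the deposited tables. The 207 carry 206 different symbols, since Vmn1r216 is listed under a pair of gene IDs, and all 207 IDs matched the GENCODE M21 mouse annotation.

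The samples were oocytes of C57BL/6 mice, amplified by the Smart-Seq2 method, in 2 libraries labelled mutant and 2 labelled control. In the mice of the study a point mutation had been placed where exon 3 of Ezh2 is alternatively spliced (Ezh2Long and Ezh2Short). Ezh2 is the enzyme that methylates histone H3 at lysine 27. The mutant label does not say which of these forms its oocytes carried, and no label says how many oocytes or mice went into a library, so a p-value here sets the groups against the spread of these 4 libraries, which may be technical. In bulk libraries of this kind, fewer cells with a transcript and less of it in each cell cannot be told apart.

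The count matrix held 26575938 and 26587327 counts in the mutant libraries and 26617816 and 25090032 in the control libraries. Ezh2 had 4955 and 5938 counts in mutant oocytes and 7762 and 6028 in control oocytes, which cannot show the splice form. All 12 oocyte markers checked, among them Zp3, Gdf9 and Bmp15, were at 1 CPM or more (counts per 1000000 of the library total, scaled by the TMM method). None passed the edgeR test used below, and their median log2 fold change was 0.07. Ooep came closest to passing, with 25941 and 19304 counts in mutant and 11741 and 9649 in control oocytes (adjusted p = 0.0516 in that test). Libraries differed in traces of other cells: 10 cumulus and granulosa cell markers summed to 7032 and 1152 counts in mutant and 1623 and 1387 in control oocytes, and 8 leukocyte markers to 307 and 3894 counts in mutant and 100 and 132 in control oocytes. Single markers did not all follow these sums. The leukocyte marker Lyz2 had 226 and 102 counts in mutant and 9 and 1 in control oocytes and passed the edgeR test (adjusted p = 0.0437; 0.203 without control replicate 1, 0.283 without control replicate 2 and 0.0524 on library totals without TMM). Cyp19a1, a granulosa cell enzyme gene, had 461 and 627 counts in mutant and 850 and 1070 in control oocytes and did not pass (adjusted p = 0.0864). Of 6 markers of vomeronasal neurons, which summed to 1504 and 1391 counts in mutant and 1467 and 1556 in control oocytes, Calr4 held nearly all counts. Trpc2, the channel gene, had 3 and 1 counts in mutant and 21 and 14 in control oocytes. Omp, the olfactory marker protein gene, had 0 and 2 counts in mutant oocytes and 0 in both control libraries, and Gng8, a G protein gamma subunit gene of these neurons, had 2 and 5 counts in mutant oocytes and 0 in both control libraries.

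Most V1R genes were silent. In the count matrix 159 of the 207 genes (76.8%) had no count in any of the 4 libraries, and by the RSEM expected counts, which split reads among transcripts by a likelihood model, 170 (82.1%) had none. No gene was read by RSEM alone. Over 104871113 counts, a count of 0 allows a level of up to 0.0286 CPM (3 counts, counting error only). That level does not cover reads that match several copies, whose handling in the matrix no source used here states. Of the 207 genes, 97 have a relative with at least 95% identical coding bases, and 16 of these had a count. Among these 16 is Vmn1r183, whose nearest match, Gm36694, is an antisense gene that overlaps it and not a separate copy. Of the 48 genes with a count, 18 were read in 1 library only, 13 in all 4 libraries, and 13 had no more than 3 counts in all. Of all 55335 genes 52.3%, and of the protein-coding ones 22.4%, were silent in the matrix. Of 1108 olfactory receptor genes (Olfr) 80.6% were silent, of 122 type 2 vomeronasal receptor genes (Vmn2r, which work in basal vomeronasal neurons) 60.7%, of 15 trace amine receptor genes (Taar) 80% and of 8 formyl peptide receptor genes (Fpr) 87.5%. Of 119 annotated V1R pseudogenes (Vmn1r-ps) 90.8% were silent. These shares are descriptions, and no difference between families was tested.

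**Figure D1:**
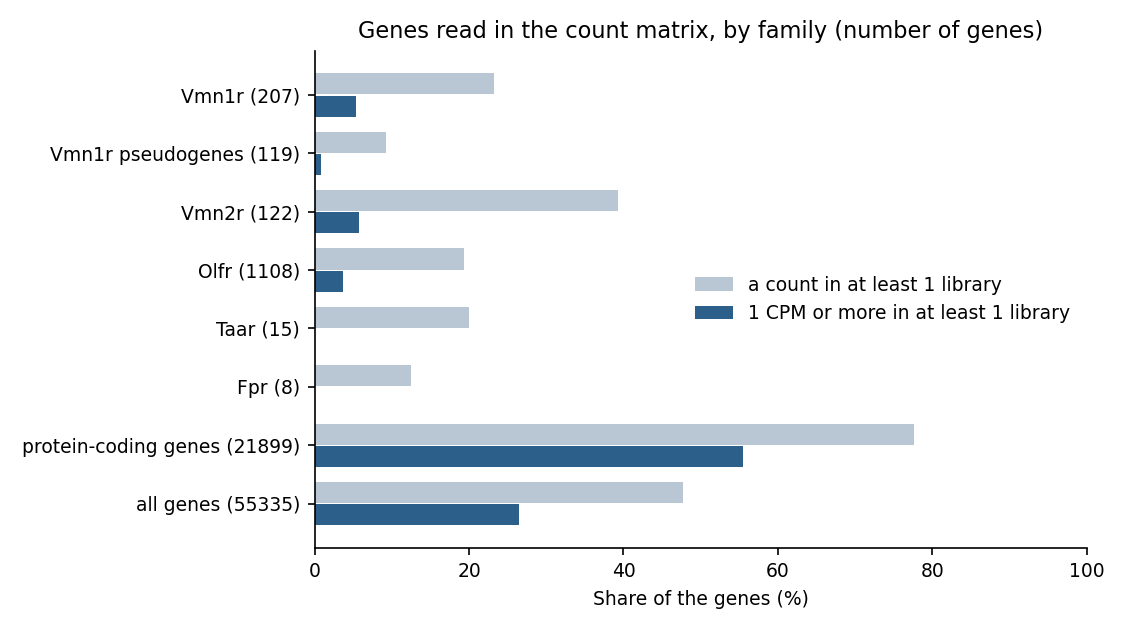
Share of the genes of each family (horizontal axis, percent) that had a count in at least 1 library (light bars) or reached 1 CPM in at least 1 library (dark bars) in the count matrix, with the number of genes in parentheses. Of the 207 V1R genes 48 had a count and 11 reached 1 CPM, and no Taar or Fpr gene reached it.

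The V1R counts came from few genes. Together the 207 genes had 897 and 1141 counts in mutant oocytes and 3168 and 2144 in control oocytes. The 3 genes with the most counts, Vmn1r76, Vmn1r62 and Vmn1r139, all on chromosome 7, held 76.2% of all V1R counts, and the first 8 held 92.8%. Only 11 genes reached 1 CPM in a library. They were Vmn1r76, Vmn1r62, Vmn1r139, Vmn1r234, Vmn1r35, Vmn1r202, Vmn1r233, Vmn1r199, Vmn1r32, Vmn1r69 and Vmn1r25, and the last 4 of these were over 1 CPM in control replicate 1 alone, so that 7 genes remained without it. By RSEM expected counts 8 genes reached that level.

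**Figure D2:**
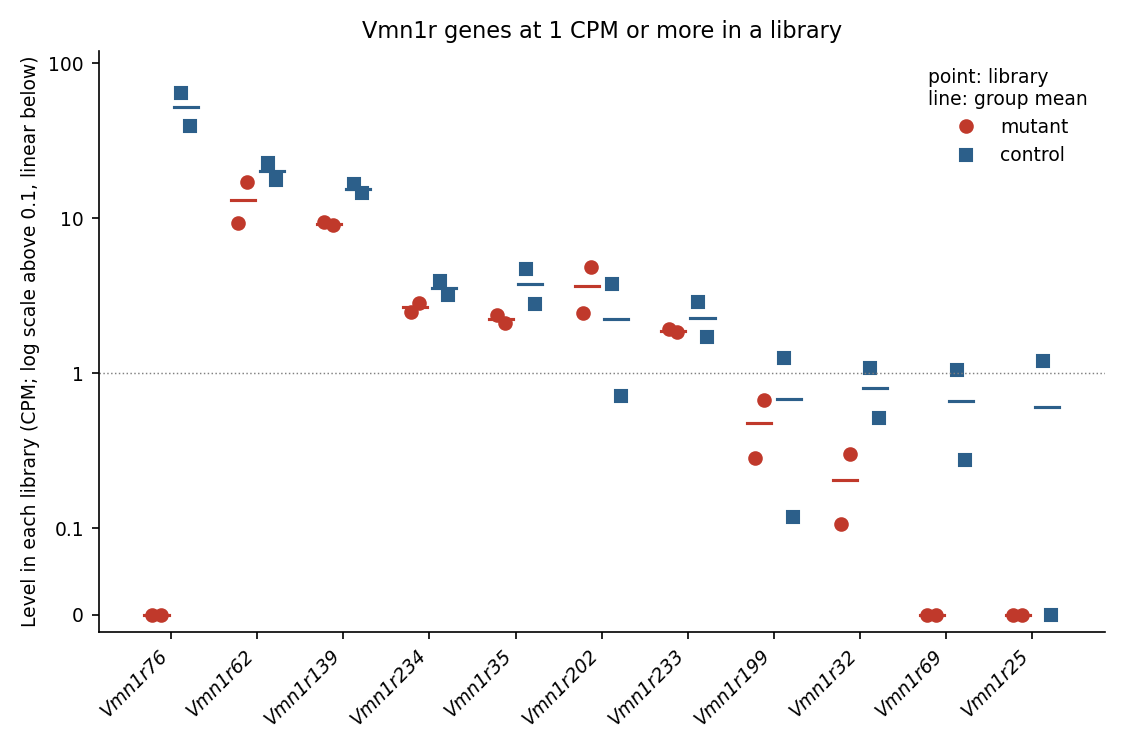
Level (vertical axis, CPM; log scale above 0.1, linear below) of the 11 V1R genes at 1 CPM or more in at least 1 library. Circles are the 2 mutant libraries, squares the 2 control libraries and short lines the group means. Vmn1r76 was at 0 in both mutant libraries and at 64.4 and 39.5 CPM in the control libraries, while the groups lay within 1 order of magnitude of each other for Vmn1r62, Vmn1r139, Vmn1r234, Vmn1r35, Vmn1r202 and Vmn1r233.

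Vmn1r76 (ENSMUSG00000115267.1, mm10 chr7:11923523-11938213, minus strand) had no count in either mutant library, against 1599 and 995 counts in the control libraries. RSEM gave the same picture with smaller values, 0 in both mutant libraries against 366 and 217 expected counts in the control libraries. The groups did not overlap in either source, as was so for 54.6% of all tested genes by CPM in the matrix. With the count of 0 in the mutant group taken as 3 counts over the TMM-scaled size of its 2 libraries, a level of 0.0548 CPM, against 51.8 CPM over the control group, Vmn1r76 was at least 947-fold lower in mutant oocytes by the matrix. By RSEM it was at least 212-fold lower. Both bounds cover counting error only, and not the spread between libraries. Vmn1r76 was the only one of 11 tested V1R genes that passed the test (quasi-likelihood test of edgeR, adjusted p = 0.00145 over 15493 genes, and 0.00451 on RSEM counts). Of all tested genes 3.75% passed, 1.98% with a lower level in mutant oocytes, and 3.89% passed on RSEM counts. Without control replicate 1 the adjusted p was 0.0637, and the call was lost. The summed counts of cumulus and granulosa cell markers were highest in mutant replicate 1 and those of leukocyte markers in mutant replicate 2, and Vmn1r76 was at 0 in both. The part of other cells in the result was not tested. Vmn1r76 passed without mutant replicate 1 and without mutant replicate 2, in fits where the lone mutant library is assumed to vary like the control libraries.

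The nearest relative of Vmn1r76 shares 83.1% of its coding bases, so the coding sequence of Vmn1r76 has no near-identical copy among the annotated transcripts. Its exon sequence outside the coding bases was not compared. The relative, Vmn1r80, is shown for a 90-base coding stretch. Among windows that aligned without gaps under a set limit on differences, it had the most differences. It lies at chr7:11930346-11930435 on the minus strand for Vmn1r76 and chr7:12193755-12193844 on the plus strand for Vmn1r80. Capitals mark the 19 bases of Vmn1r80 that differ.
Vmn1r76: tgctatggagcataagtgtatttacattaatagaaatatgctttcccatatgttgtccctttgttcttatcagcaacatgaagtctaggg
Vmn1r80: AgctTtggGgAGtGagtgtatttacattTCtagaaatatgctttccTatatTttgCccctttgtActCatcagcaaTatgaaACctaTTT
Vmn1r80 had no count in any library, in either source.

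The genes beside Vmn1r76 were nearly silent. Its annotated neighbours are a pair of processed pseudogenes. Tpt1-ps4, at 7.03 kb, had 2 and 5 counts in mutant oocytes and 0 and 1 in control oocytes, and Gm45387, at 14.2 kb, had none. Within 1000 kb on either side lay 127 other genes, of which 81 had no count. That window held 12 other V1R genes, of which 1 was read. Of the 15 genes tested there, 3 passed, each with a lower level in mutant oocytes, where 3.75% of all tested genes passed and 1.98% did so with a lower level. They were the pseudogene Gm45549 (2 and 0 counts in mutant and 52 and 38 in control oocytes, adjusted p = 0.0475), Zscan4-ps1 (500 and 217 counts in mutant and 1537 and 1079 in control oocytes, adjusted p = 0.0483) and the pseudogene Gm7789 (103 and 76 counts in mutant and 331 and 304 in control oocytes, adjusted p = 0.0319). Their distances from Vmn1r76 were -419.5, -854 and -927 kb, toward lower coordinates. None of the 3 passed without control replicate 1 (adjusted p 0.303 to 0.375 in the edgeR test), without control replicate 2 (0.273 to 0.332) or on library totals without TMM (0.0505 to 0.0694), and Gm45549 did not pass without mutant replicate 2 (0.0501). Gm45549 and Zscan4-ps1 missed the threshold with DESeq2 size factors (adjusted p = 0.0506 and 0.0511 in the edgeR test), and Gm7789 missed it on RSEM counts (0.0668). The other tested genes of the window ran both ways, and none passed. Among the higher ones, Zscan4d had 361 and 219 counts in mutant and 104 and 105 in control oocytes (adjusted p = 0.0863 in the edgeR test). Zfp606 had 586 and 521 counts in mutant and 265 and 248 in control oocytes (adjusted p = 0.0701 in the same test). The window was chosen after the values of Vmn1r76 were seen.

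**Figure D3:**
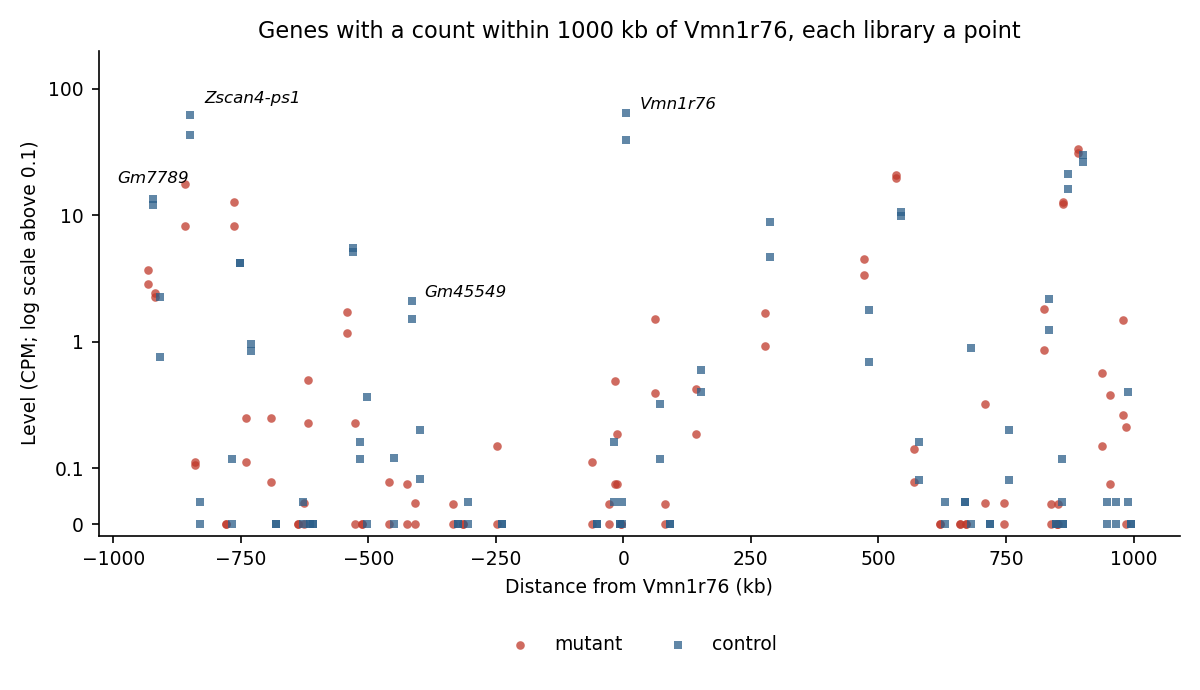
Level in each library (vertical axis, CPM; log scale above 0.1, linear below) of Vmn1r76 and of every gene with a count within 1000 kb of it, by distance from it in kb (horizontal axis; negative values lie toward lower coordinates). Circles are mutant and squares control libraries. The 3 other genes that passed the test, Gm7789, Zscan4-ps1 and Gm45549, are named. No gene with a level near that of Vmn1r76 in control oocytes lies next to it.

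Vmn1r62 and Vmn1r139 were read in every library and did not pass the test. Vmn1r62 (ENSMUSG00000092579.2, chr7:5673631-5676663, plus strand) had 261 and 452 counts in mutant oocytes and 566 and 447 in control oocytes. Mutant replicate 2 lay next to control replicate 2 once the library size was taken into account, at 16.98 and 17.74 CPM. The log2 fold change was -0.63 (SE 0.34, adjusted p = 0.326 in the edgeR test). Vmn1r139 (ENSMUSG00000074311.3, chr7:22069057-22097907, plus strand) had 265 and 240 counts in mutant oocytes and 410 and 365 in control oocytes. The groups did not overlap in CPM for 54.6% of all tested genes, Vmn1r139 among them. It was at 9.21 ± 0.28 CPM in mutant and 15.5 ± 1.43 CPM in control oocytes (SD, n = 2 each). Its log2 fold change was -0.75 (SE 0.25, adjusted p = 0.144 in the edgeR test).

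The 8 other tested genes had lower counts. Vmn1r234 (chr17:21226087-21235467, plus strand) had 70 and 76 counts in mutant and 97 and 81 in control oocytes, and Vmn1r35 (chr6:66678070-66685906, minus strand) had 67 and 56 counts in mutant and 117 and 70 in control oocytes. Vmn1r202 (chr13:22497750-22505381, minus strand) ran the other way in its mean, with 69 and 128 counts in mutant and 94 and 18 in control oocytes, and the groups overlapped. Vmn1r233 (chr17:20989747-20996464, minus strand) had 54 and 49 counts in mutant and 71 and 43 in control oocytes. Adjusted p-values of these 4 genes lay between 0.392 and 0.792 in the edgeR test. Vmn1r32 had 3 and 8 counts in mutant and 27 and 13 in control oocytes, and Vmn1r34 had 6 and 5 counts in mutant and 16 and 23 in control oocytes. Their log2 fold changes were -1.96 (SE 0.92) and -1.93 (SE 0.80), with adjusted p-values of 0.265 and 0.216 in the edgeR test. That of Vmn1r32 was -2.87 without mutant replicate 2, -1.33 without control replicate 1 and -3.18 on RSEM counts. Vmn1r199 had 8 and 18 counts in mutant and 31 and 3 in control oocytes. Vmn1r37 had 13 and 18 counts in mutant and 12 and 15 in control oocytes.

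Of the 11 tested genes, 7 had both mutant libraries below both control libraries, against 25.7% of all tested genes. The median log2 fold change was -0.63 over the 11, -0.57 without Vmn1r76, and 0.05 over all tested genes. The filter on low counts lets in a gene that is high in 1 group alone, so these values describe the genes that passed it and not the family. Without Vmn1r76, the summed level of the family was 31.9 and 42.9 CPM in mutant oocytes and 63.2 and 45.6 CPM in control oocytes.

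Genes under the filter also showed counts in 1 group only. Vmn1r69 (0 in both mutant libraries, 26 and 7 counts in control), Vmn1r183 (0 in both mutant libraries, 4 and 4 in control) and Vmn1r68 (0 in both mutant libraries, 2 and 5 in control) were read in both control libraries and in neither mutant library. Vmn1r179 and Vmn1r212 were read in both mutant libraries and in neither control library, with no more than 3 counts in a library. The share of all genes with such a pattern at low counts was not counted, so it is not read as a trait of the family. Vmn1r25 had 30 counts, all in control replicate 1. These genes were under the filter of the edgeR test, and none of them passed with no filter on low counts, where all 48 genes with a count were tested. Vmn1r183 overlaps the antisense gene Gm36694, and reads of the pair cannot be told apart without strand.

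Levels per length gave another order than counts. In TPM, the RSEM unit that divides by transcript length, Vmn1r139 was the highest V1R gene, at 27.9 and 26.8 TPM in mutant oocytes and 43.2 and 43.6 TPM in control oocytes. Vmn1r62 followed with 5.15 and 10.5 TPM in mutant and 10.02 and 9.16 TPM in control oocytes. Vmn1r35 had 2.27 and 2.12 TPM in mutant and 3.57 and 2.63 TPM in control oocytes. Vmn1r76, first by counts in control oocytes, had 0 TPM in both mutant libraries and 2.56 and 2.01 TPM in the control libraries. The length that RSEM used for it was 8187.35 bases in control replicate 1, against 753 bases for Vmn1r139.

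The deposited lengths also tell on which annotated transcript RSEM placed its estimate. Reads across exon junctions were not examined, so the models named below are estimates and not observed transcripts. RSEM reports for each gene an average of transcript lengths weighted by their estimated abundance, so a value equal to the length of 1 model means that all of the estimate fell on that model. The transcripts listed for each of the 207 genes were those of GENCODE M21, and for all 170 genes with no RSEM count the deposited length was the plain mean of their models within 0.011 bases. Of the 37 genes read by RSEM, 32 have at least 2 models, and for 22 of these the length pointed to the same single model in every library with a count. Of these 22 models, 15 contained the whole of the longest coding sequence annotated for the gene and 7 contained part of it or none. Among 9 such genes with at least 10 expected counts, 3 models (Vmn1r62, Vmn1r233 and Vmn1r32) contained the whole of it and 6 did not.

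Vmn1r139 showed this most clearly. Its length was 753 bases in all 4 libraries, that of a 4-exon model, and not the 894 bases of the 1-exon model with the full coding sequence of 891 bases. The 4-exon model keeps 318 of these 891 bases (35.7%), from coding base 574 on, and begins its own reading frame of 351 bases in exon 3. The stretch where the models part is shown for both, at chr7:22095648-22097466 for the spliced model and chr7:22097407-22097466 for the 1-exon model (mm10, plus strand). Capitals mark the 33 bases before the shared part, which come from exon 3 in the spliced model.
Vmn1r139 4-exon form: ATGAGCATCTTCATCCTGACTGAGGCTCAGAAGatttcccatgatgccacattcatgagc
Vmn1r139 1-exon form: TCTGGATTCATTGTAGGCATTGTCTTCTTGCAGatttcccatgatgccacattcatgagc
The spliced form begins with a start codon of its own, and the 1-exon form shown here starts at coding base 541 of that gene's full sequence.

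Vmn1r35 and Vmn1r37, close relatives on chromosome 6 with 95.9% identity, were alike in this. The deposited length of Vmn1r35 was 1789 bases in all 4 libraries, that of a 3-exon model, and that of Vmn1r37 was 1305 bases, that of a 2-exon model. Each of these models is 465 bases shorter than an otherwise like model with the full coding sequence, and they keep 475 of 888 coding bases in Vmn1r35 and 493 of 906 in Vmn1r37. The annotated reading frame of the short Vmn1r35 model starts at coding base 502 of the full one. The first 60 coding bases of both are shown, at chr6:66679625-66679684 for the full sequence and chr6:66679124-66679183 for the short form (mm10, minus strand), with the start codon in capitals.
Vmn1r35 full coding sequence: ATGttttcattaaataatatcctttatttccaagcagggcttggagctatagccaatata
Vmn1r35 short form: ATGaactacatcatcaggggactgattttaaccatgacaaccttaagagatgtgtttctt
Vmn1r34, another relative in the same row of genes, differed from both: its length of 2952 bases in 3 libraries is that of a model with the full coding sequence of 927 bases.

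For Vmn1r234 the length was 6373 bases in all 4 libraries, that of a model annotated as non-coding, which keeps 292 of the 987 coding bases of the full sequence. Vmn1r233, its neighbour in number on chromosome 17, was at 4818 bases in all 4 libraries, a 1-exon model with the full 957 coding bases. Vmn1r62 was at 2102 bases in all 4 libraries, a 2-exon model with the full 900 coding bases. For Vmn1r202 the estimate changed between libraries. Both mutant libraries and control replicate 2 were at 5441 bases. Control replicate 1, with 90 expected counts, was at 3085.69 bases, which puts 52.0% of its estimated abundance on a 1-exon model of 909 bases. Such a percentage is a share of abundance, and the shorter model takes a smaller share of the reads than this. Both models hold the full coding sequence. The estimate for Vmn1r76 also differed between the control libraries, with 366 and 217 expected counts. In control replicate 1 between 96.2% and 99.98% of the estimated abundance fell on a 5-exon model of 8189 bases. In control replicate 2 between 20.4% and 20.9% of the abundance, and a smaller share of the reads, fell on the 1-exon model of 975 bases. The 5-exon models keep 920 of its 972 coding bases. With 2 libraries a group, no difference in the use of models was tested.

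**Figure D4:**
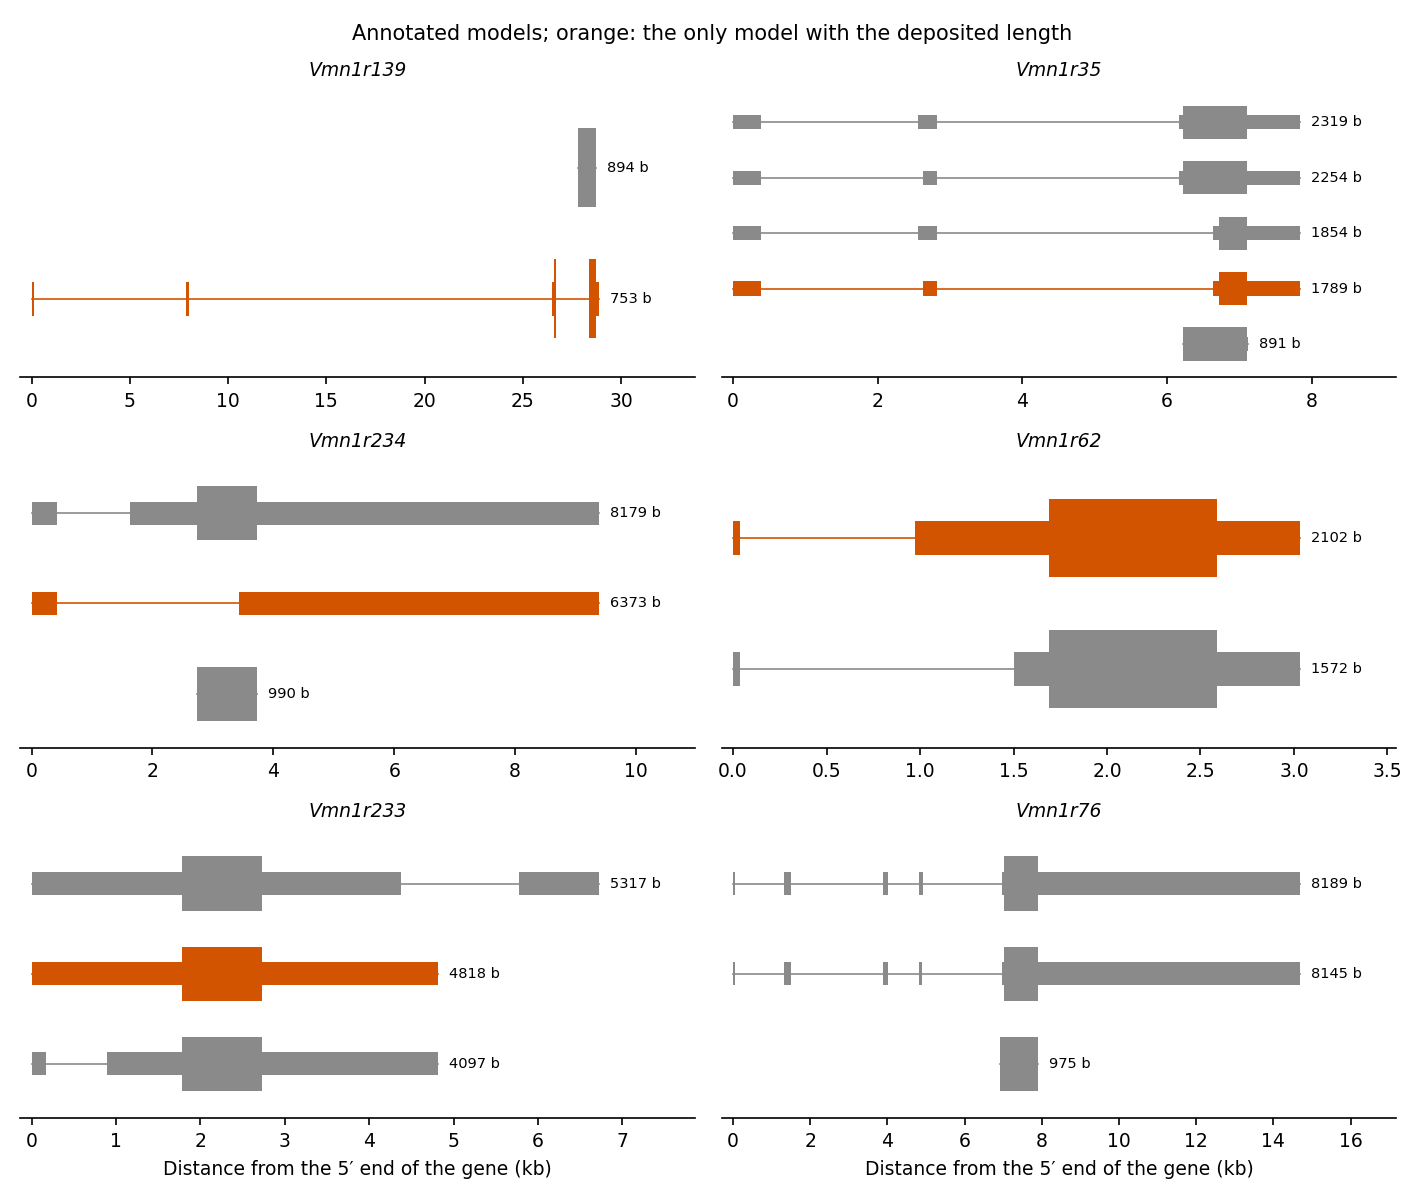
Annotated models of 6 V1R genes by distance from the 5′ end of the gene (horizontal axis, kb). Thick boxes are coding sequence, thin boxes other exon sequence and lines introns, with the model length in bases at the right; narrow exons are drawn at a minimum width. Orange marks the only model whose length equals the deposited one in the libraries with a count. Vmn1r139, Vmn1r35 and Vmn1r234 have it on a model with part of the full coding sequence or no coding region, Vmn1r62 and Vmn1r233 on a full one, and no single model matched for Vmn1r76.

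Genes with a spliced model held nearly all V1R counts. These counts were not divided by model length, which was not compared between genes with and without such a model. Of 143 genes with an annotated model of at least 2 exons 40 (28.0%) were read and all 11 at 1 CPM or more were among them, while of 64 genes with 1-exon models only 8 (12.5%) were read, with 62 counts in all. This grouping goes with identity between copies. Of the 64 genes with 1-exon models only, 55 have a relative with at least 95% identity, of which 6 (10.9%) were read, and of the other 9, 2 (22.2%) were read. Of the 143, 42 have such a relative, of which 10 (23.8%) were read, and of the other 101, 30 (29.7%) were read. The 10 include Vmn1r183, whose nearest match, Gm36694, overlaps it on the other strand. By chromosome, 24 of 103 genes on chromosome 7 were read, 9 of 51 on chromosome 6, 9 of 35 on chromosome 13 and 6 of 14 on chromosome 17, and none of the 4 genes on chromosomes 1, 4 and 18.

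The matrix and RSEM were then compared on close paralogs. Over the family, RSEM held 4139.13 counts where the matrix held 7350, which is 56.3%, and 74.8% without Vmn1r76. The median over all 15493 tested genes was 90.1%, and 18.9% of them were under 50%. Vmn1r76 differed most, by 2011 counts, and RSEM held 22.9% and 21.8% of its matrix counts in the control libraries. Vmn1r62 followed with a difference of 658 counts, Vmn1r139 with 208, Vmn1r233 with 54, Vmn1r35 with 40 and Vmn1r202 with 33. Of the 19 genes with at least 20 matrix counts, RSEM held under 50% of the counts for Vmn1r76 and Vmn1r59 alone. Vmn1r59, a close relative of Vmn1r62, had 22 matrix counts and 1 RSEM count. The 11 genes read only in the matrix had 50 counts in all, 19 of them on Vmn1r198. RSEM counts were whole numbers for every V1R gene but Vmn1r183, whereas 14.3% of the 21631 genes read by RSEM had a fractional value in some library.

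**Figure D5:**
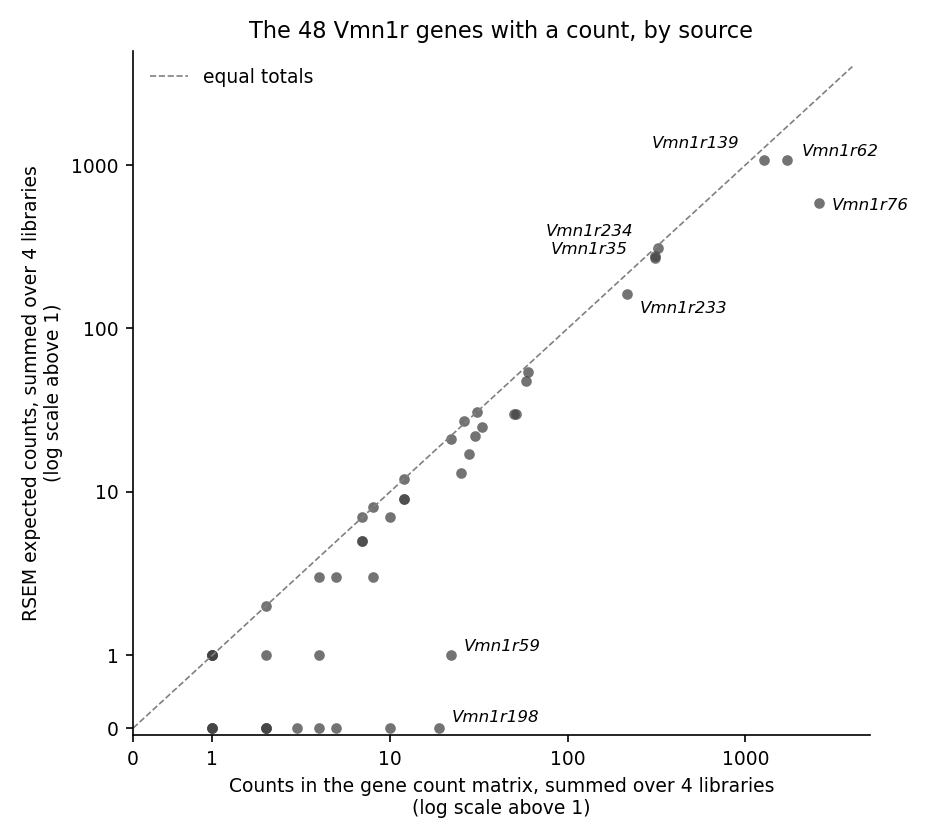
Matrix counts (horizontal axis) and RSEM expected counts (vertical axis), both summed over the 4 libraries and on a log scale above 1, for the 48 V1R genes with a matrix count. The dashed line marks equal totals. Vmn1r76 lies lowest under it among the abundant genes, with 583 RSEM counts for 2594 matrix counts, and the 11 genes on the horizontal axis have no RSEM count.

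Joining genes with at least 90% identical coding bases gave 29 groups of 2 genes or more and 70 genes alone. Of 10 groups with a count, 5 had a single gene with matrix counts, and since no gene was read by RSEM alone the sources could not differ there. Of the other 5, 4 had most counts on the same gene in both sources. The exception had 8 matrix counts in all, 5 of them on Vmn1r33, and 1 RSEM count, on Vmn1r38. The largest group holds 53 genes of chromosome 7, and Vmn1r139 had 93.4% of its matrix counts and 94.6% of its RSEM counts. Its coding sequence is identical to that of Vmn1r132, which had no count in either source, and it shares 99.7% with Vmn1r112, which had 10 matrix counts and no RSEM count. The model that the deposited length of Vmn1r139 pointed to holds 318 of these 891 coding bases. The rest of that model was not compared with other genes. In the group of 9 around Vmn1r62, that gene had 96.4% of the matrix counts and 97.6% of the RSEM counts. In the group of 5 that holds Vmn1r35, that gene had 66.1% of the matrix counts and 71.4% of the RSEM counts, Vmn1r32, Vmn1r34 and Vmn1r37 held the rest, and Vmn1r36, 98.9% identical to Vmn1r37, had none. Genes in such groups held 51.7% of all V1R matrix counts and 66.2% of the RSEM counts.

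The copies of Vmn1r62 show how little separates the coding sequences of these genes. Exon sequence outside them was not compared. Vmn1r63 matches 97.0% and Vmn1r60 96.8% of its coding bases. Among the 90-base windows of Vmn1r62 kept in the same search, the one with the most differences from these relatives is shown. It lies at chr7:5676032-5676121 on the plus strand. The aligned stretches lie at chr7:5802832-5802921 for Vmn1r63 and chr7:5544300-5544389 for Vmn1r60, both on the minus strand. Capitals mark the 5 bases of Vmn1r63 and the 6 bases of Vmn1r60 that differ from Vmn1r62.
Vmn1r62: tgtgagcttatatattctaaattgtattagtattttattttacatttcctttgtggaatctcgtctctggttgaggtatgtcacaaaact
Vmn1r63: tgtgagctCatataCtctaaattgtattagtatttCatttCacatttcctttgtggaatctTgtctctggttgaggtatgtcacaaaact
Vmn1r60: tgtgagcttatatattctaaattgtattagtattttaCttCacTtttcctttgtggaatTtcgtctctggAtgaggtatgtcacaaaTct
Vmn1r62 had 1726 matrix counts and 1068 RSEM counts over the 4 libraries. Vmn1r63 had 12 matrix counts, all in mutant replicate 2, and 9 RSEM counts, and Vmn1r60 had none in either source.

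A list of 29 genes was followed that work with V1Rs in vomeronasal neurons or only mark these neurons. Of these, 18 were tested, 1 passed with a higher and 1 with a lower level in mutant oocytes, and the median log2 fold change was 0.26, against 3.75% called and a median of 0.05 over all tested genes. Slc17a6, the vesicular glutamate transporter VGLUT2, had 489 and 304 counts in mutant oocytes and 5 and 0 in control oocytes (adjusted p = 0.0145 in the edgeR test). Kcnma1, a calcium-activated potassium channel, had 271 and 377 counts in mutant oocytes and 750 and 756 in control oocytes (adjusted p = 0.0459 in the same test). Slc17a6 and Kcnma1 did not pass without control replicate 1 (adjusted p = 0.0871 and 0.326 in the edgeR test) or without control replicate 2 (0.120 and 0.311), nor did Kcnma1 on library totals without TMM (0.060). Gnai2, the G protein subunit that V1Rs couple to, had 1230 and 941 counts in mutant oocytes and 717 and 744 in control oocytes, and Trpc2 had 3 and 1 counts in mutant oocytes and 21 and 14 in control oocytes. Neither Gnai2 (adjusted p = 0.242) nor Trpc2 (adjusted p = 0.122) passed the edgeR test. Rtp1 and Rtp2, which carry olfactory receptors to the membrane, and the transcription factor gene Bcl11b had no count.

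In the other chemosensory families 3 of 55 tested Olfr genes passed, 1 with a higher and 2 with a lower level in mutant oocytes, and none of 7 tested Vmn2r genes did, against 3.75% of all tested genes. The Olfr genes with the highest level were Olfr976, with 1924 and 2108 counts in mutant and 1732 and 1902 in control oocytes, and Olfr1349, with 810 and 1327 counts in mutant and 215 and 229 in control oocytes (adjusted p = 0.0223 in the edgeR test, 0.284 without control replicate 1 and 0.285 without control replicate 2). Among Vmn2r genes, Vmn2r25 had 347 and 556 counts in mutant and 1177 and 981 in control oocytes, and Vmn2r24 had near-equal counts of 339 and 551 in mutant and 1170 and 967 in control oocytes. In TPM they parted, with 9.63 and 16.4 TPM in mutant and 32.8 and 28.3 TPM in control oocytes for Vmn2r25, and no more than 0.02 TPM for Vmn2r24 in any library. The annotation has these genes overlapping on opposite strands, so their matrix counts are uncertain. The Taar genes with the most counts, Taar7d and Taar9, had 7 and 9 counts over all libraries, and of the Fpr genes Fpr-rs4 alone was read, with 3 counts in control replicate 2.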

How the data were processed

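RNA from oocytes was sequenced in 4 libraries. The authors deposited a matrix of raw gene counts, made with a counting tool that no source used here names, and, per the file headers, RSEM gene results with expected counts, TPM, FPKM (not used) and lengths. The submitters' processing notes name cutadapt 1.16, STAR, RSEM and mm10. No source used here says whether reads were counted by strand. From the counts, edgeR 4.0.16 was run (filterByExpr, TMM, quasi-likelihood test of mutant against control, n = 2 each, Benjamini-Hochberg threshold 0.05) over 15493 genes; expected counts were rounded for the same test. Tried as alternatives were DESeq2 1.42.0, limma 3.58.1, other scalings and filters, a replicate block and leaving out each library. Tested on counts simulated for this comparison (14872 genes), it called 20% of the genes changed by 2-fold, 54% at 4-fold, and 86% at 16-fold. In the same run 15 unchanged genes were called, and 3 genes were called in a run with no changed gene. Each library held 25090032 to 26617816 counts, and floors (3 counts) cover counting error only.

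Identity is the share of a gene's longest coding sequence matched in another's (BLAST 2.17.0, GENCODE M21 transcripts); groups joined genes with at least 90% of the longer sequence identical. It was planned on amino acids, and no protein table was used here. Deposited lengths were matched to models within 0.005 bases. Named genes are those that passed, those at 1 CPM or more, the 6 with the largest difference between sources, neighbours, and the leading genes of the lists; others were chosen after their values were seen. The members and lists were chosen with earlier results of these data known.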

Additional observations from a re-analysis of the deposited data

How the results depend on the processing

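Vmn1r76 passed the test under 11 of 12 alternatives (adjusted p between 4.11e-16 and 0.0443) and was lower in mutant oocytes under all 12; without control replicate 1 the adjusted p was 0.0637, so that the number of V1R genes past the threshold was between 0 and 1 when a library was left out. No other V1R gene passed under any of the 12. The number of all genes past the threshold, 581, depended strongly on the tool and the libraries: 1993 with DESeq2, 1322 with no filter on low counts (26406 genes tested), 1213 with a replicate block, and between 22 and 1688 when each library was left out. The replicate numbers were not taken to pair the libraries, since 2 pairs with a correlation of deviations of 0.18 do not show it; Vmn1r76 passed with the block as well. Silent genes numbered 159 to 172 under every alternative. Genes at 1 CPM or more were 36 at 0.1 CPM, 3 at 10 CPM and between 7 and 11 when a library was left out. The share of V1R counts in paralog groups was 91.8% at 80% and 43.3% at 95% identity in the matrix, and 87.3% and 54.5% in RSEM counts. The causes were not tested. With 2 libraries a group, an exact permutation test cannot go below p = 0.333, and 159 genes at 0 may lie under 0.0286 CPM.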

Other observations

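Some annotated genes resemble V1R genes under another name. Of 28 protein-coding genes that match at least 80% of the coding bases of a Vmn1r gene and carry another symbol, 26 had no count in any library. The other 2, Gm10665 and Gm10670, had 2 counts each, all in mutant replicate 2. Among 119 V1R pseudogenes 11 were read and 1 reached 1 CPM. That one, Vmn1r-ps60, had 11 and 40 counts in mutant oocytes and 8 and 3 in control oocytes (adjusted p = 0.273 in the edgeR test). Vmn1r-ps56 had 2 and 13 counts in mutant oocytes and none in either control library, and was not tested.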
